A study of Mus musculus with 8 samples.

Results

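The neurotrophins and their receptors were followed by 7 genes, found in the deposited table by their symbols: the ligand genes Bdnf, Ntf3 and Ntf5 and the receptor genes Ntrk2, Ntrk3, Ngfr and Sort1. All 7 had a single entry among the 19884 genes of the table, and all 7 passed the filter on low counts. RNA was sequenced from whole uterus and from whole maternal brain of wild-type C57BL/6J mice, 6 to 10 weeks old, which had been mated with fertile males and were untreated. Both organs were taken on gestation day 4, counted from the vaginal plug on day 1, and pregnancy was checked by blastocysts in a flush of the uterus. There were 4 uterus libraries and 4 brain libraries, each from the organ of 1 mouse.

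Neurotrophins are secreted growth factors that are made as longer precursors and cut to their mature form by proprotein convertases inside the cell or by proteases outside it. Mature neurotrophins signal through the Trk receptor tyrosine kinases, while p75, the product of Ngfr, binds all of them, and together with sortilin, the product of Sort1, it binds the uncut precursors. In brain the system is known for neuronal survival and synaptic plasticity, and outside the brain for the growth and upkeep of sensory and sympathetic nerves.

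Uterus libraries held 35394603 to 40254254 counts and brain libraries 40115616 to 47790178. The labels of the organs were checked by marker genes: the summed level of 4 markers of uterine epithelium was 530 to 642 CPM (counts relative to the TMM-scaled size of the library) in uterus and 5.56 to 8.87 CPM in brain, and that of 5 neuronal markers was 7.98 to 10.9 CPM in uterus and 4943 to 5186 CPM in brain. These are whole organs, in which fewer cells of a type and less RNA per cell cannot be told apart.

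The comparison of uterus with brain asks which parts of the neurotrophin system each organ expressed above the other on this day. Ngfr was higher in uterus, and Bdnf, Ntf3, Ntrk2, Ntrk3 and Sort1 were lower in uterus than in brain. Ntf5 was also called higher in uterus, from few counts and by a call that rested on 1 library. Differences between these organs were the rule: by the edgeR quasi-likelihood test with Benjamini-Hochberg adjustment, 87.0% of the 16074 genes tested differed, 43.5% higher in uterus and 43.6% higher in brain, so that 7 of 7 genes called is close to that share. When a change of more than 2-fold was asked for with glmTreat, 49.3% of the genes tested passed, and the shares with uterus or brain as the higher organ were 23.5% and 25.8%. Of the 7 genes, 5 passed it, with Ngfr higher in uterus and Bdnf, Ntrk2, Ntrk3 and Sort1 higher in brain. The libraries of the organs did not overlap for 6 of the 7 genes, against 84.1% of the genes tested, and Ntf5 was the exception. All uterus libraries lay above all brain libraries for Ngfr, as for 42% of the genes tested, and below them for Bdnf, Ntf3, Ntrk2, Ntrk3 and Sort1, likewise as for 42%. Values below are CPM in libraries 1 to 4 of an organ, means are given with the SD of the 4 libraries of an organ (n = 4), and uterus over brain as log2 fold change ± SE.

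**Figure D1:**
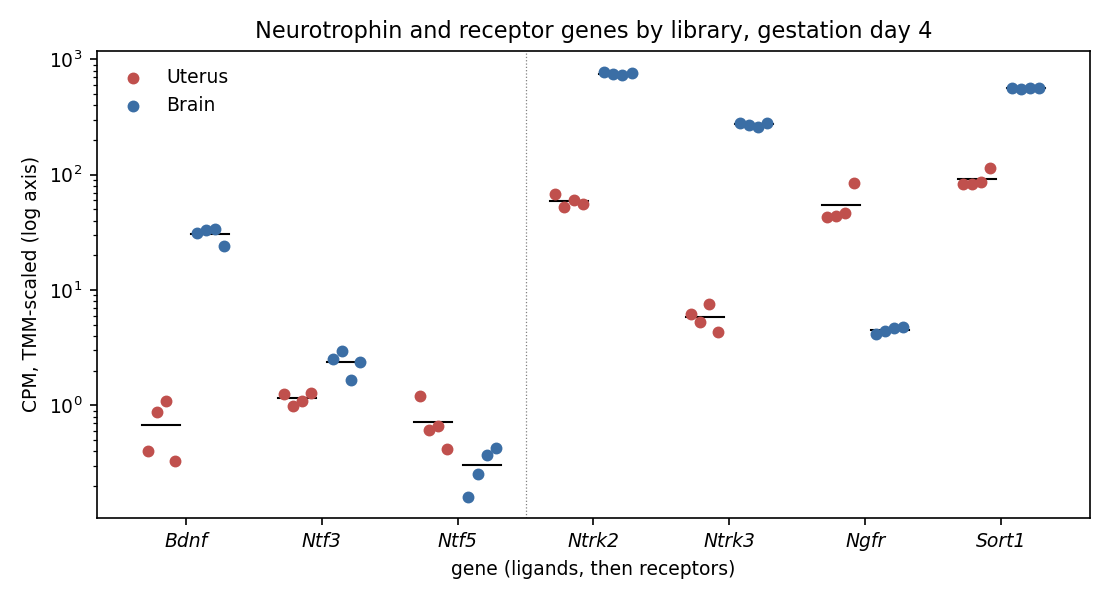
TMM-scaled CPM on a log axis of the 3 ligand genes and 4 receptor genes; each point is 1 library, in order of its number, uterus (red) left of brain (blue), and the black lines are means of 4 libraries. Ngfr stands at 42.6 CPM or more in every uterus library and at 4.78 CPM or less in every brain library, Ntf5 overlaps between the organs, and the other 5 genes lie lower in uterus.

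Bdnf encodes brain-derived neurotrophic factor, the ligand of TrkB (ENSMUSG00000048482, GRCm38 chromosome 2, 109674700 to 109727007, plus strand). It stood at 0.403, 0.870, 1.09 and 0.326 CPM in uterus, against 31.5, 33.3, 33.6 and 24.2 CPM in brain. All uterus libraries lay far below all brain libraries, and within uterus libraries 2 and 3 stood above libraries 1 and 4. The mean was 0.672 ± 0.368 CPM in uterus and 30.7 ± 4.37 CPM in brain, a difference of -5.52 ± 0.30 on the log2 scale (adjusted p = 3.42e-08, and 8.56e-08 against a 2-fold change), or 45.8-fold higher in brain. The uterine level rests on few reads, with 16, 37, 43 and 14 counts. Their exact Poisson 95% intervals, which cover counting error only, were 9.15 to 26.0 counts in uterus library 1 and 31.1 to 57.9 in uterus library 3. In brain, library 4 was the lowest, at 1025 counts.

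Bdnf is known for several alternative promoters, each with its own first exon, and the table sums all of them. RefSeq on GRCm38.p6 gave 7 start sites of this gene. Among their windows of 250 bases before the start, the G and C content was 39.2 to 59.6%, and 1 of the 7 held the core of the cyclic AMP response element, written TGACG or CGTCA. That window is shown because Bdnf is known as a gene of neuronal activity that CREB regulates through such an element. It lies on the plus strand at chr2:109692186-109692435, and the core, in capitals, ends 30 bases before the start site.
Bdnf, start site 3: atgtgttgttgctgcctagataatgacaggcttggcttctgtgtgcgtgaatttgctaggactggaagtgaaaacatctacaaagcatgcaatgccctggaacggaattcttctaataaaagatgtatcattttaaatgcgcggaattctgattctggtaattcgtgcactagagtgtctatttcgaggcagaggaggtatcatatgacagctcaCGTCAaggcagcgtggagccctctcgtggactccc
Of all 32841 RefSeq windows of this length, 17.8% held such a core on either strand, and 1.55% the whole palindrome TGACGTCA, which no window of Bdnf held. The counts do not tell which of the 7 starts was used in either organ.

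Ntf3 encodes neurotrophin 3, the ligand of TrkC (ENSMUSG00000049107, chromosome 6, 126101412 to 126166910, minus strand). It stood at 1.26, 0.988, 1.09 and 1.28 CPM in uterus, against 2.51, 2.98, 1.66 and 2.37 CPM in brain. The organs did not overlap, although the highest uterus library and the lowest brain library were close. The mean was 1.15 ± 0.140 CPM in uterus and 2.38 ± 0.543 CPM in brain, a difference of -1.04 ± 0.22 on the log2 scale (adjusted p = 0.00112), and against a 2-fold change it did not pass (adjusted p = 0.369). Among the ligands this was the most even gene between uteri, with a coefficient of variation of 12.1%, against 54.7% for Bdnf and 46.7% for Ntf5.

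Ntf5 encodes neurotrophin 4/5, the second ligand of TrkB (ENSMUSG00000074121, chromosome 7, 45413695 to 45417179, plus strand). It stood at 1.21, 0.611, 0.659 and 0.420 CPM in uterus, against 0.162, 0.254, 0.370 and 0.426 CPM in brain. Uterus library 4 lay just below brain library 4, both from 18 counts, so the organs overlapped. The mean was 0.725 ± 0.339 CPM in uterus and 0.303 ± 0.118 CPM in brain, a difference of 1.24 ± 0.41 on the log2 scale (adjusted p = 0.0165), and against a 2-fold change it did not pass (adjusted p = 0.228). The call ended without uterus library 1, which held 48 counts (0.90, adjusted p = 0.0504), and a filter of 1 CPM in 4 libraries removed the gene. The gene rests on 118 counts in uterus and 51 in brain over 4 libraries each, the fewest of the 7 genes in brain.

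Ntrk2 encodes TrkB, the receptor of BDNF and of neurotrophin 4/5 (ENSMUSG00000055254, chromosome 13, 58806569 to 59133970, plus strand). It stood at 68.0, 52.4, 60.2 and 55.5 CPM in uterus, against 777, 740, 736 and 760 CPM in brain. The uterine level was thus low beside brain but far from 0, and uterus library 1 was the highest of its organ. The mean was 59.0 ± 6.78 CPM in uterus and 753 ± 18.9 CPM in brain, a difference of -3.67 ± 0.09 on the log2 scale (adjusted p = 7.80e-11, and 2.37e-10 against a 2-fold change), or 12.8-fold higher in brain. The gene is known to give both the full receptor and shortened forms without the kinase, and the annotation lists 7 protein-coding transcripts with coding lengths of 1398 to 2463 nt. Counts per gene add these up, so the share of the kinase form was not measured.

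Ntrk3 encodes TrkC, the receptor of neurotrophin 3, which likewise exists with and without a kinase (ENSMUSG00000059146, chromosome 7, 78175959 to 78738012, minus strand). It stood at 6.14, 5.32, 7.63 and 4.34 CPM in uterus, against 283, 268, 260 and 281 CPM in brain. Uterus library 3 was the highest and library 4 the lowest of the uteri, while the brain libraries were nearly even, with a coefficient of variation of 23.8% in uterus and 4.07% in brain. The mean was 5.86 ± 1.40 CPM in uterus and 273 ± 11.1 CPM in brain, a difference of -5.55 ± 0.15 on the log2 scale (adjusted p = 2.17e-10, and 4.29e-10 against a 2-fold change), or 46.8-fold higher in brain. Among the genes tested, 6.63% had a lower log2 fold change than Ntrk3, 6.71% a lower one than Bdnf and 11.1% a lower one than Ntrk2.

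Ngfr encodes p75, a receptor of the tumour necrosis factor receptor family with a death domain and no kinase (ENSMUSG00000000120, chromosome 11, 95568818 to 95587735, minus strand). It stood at 42.6, 43.7, 46.7 and 85.2 CPM in uterus, against 4.13, 4.43, 4.71 and 4.78 CPM in brain. All uterus libraries lay above all brain libraries, 3 of them close together and library 4 well above them. The mean was 54.6 ± 20.5 CPM in uterus and 4.51 ± 0.297 CPM in brain, a difference of 3.60 ± 0.24 on the log2 scale (adjusted p = 1.73e-07, and 8.05e-07 against a 2-fold change), or 12.1-fold higher in uterus. Without uterus library 4 the log2 fold change was 3.31. Among the genes tested, 92.9% had a lower log2 fold change.

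The window before the start of Ngfr is set beside that of Ntrk2, the receptor gene with the most counts in brain, because the pair differed in opposite directions between the organs. Both are from RefSeq on GRCm38.p6, at chr11:95587699-95587948 on the minus strand for Ngfr and at chr13:58806319-58806568 on the plus strand for Ntrk2. Capitals mark GC boxes, written GGGCGG or CCGCCC.
Ngfr: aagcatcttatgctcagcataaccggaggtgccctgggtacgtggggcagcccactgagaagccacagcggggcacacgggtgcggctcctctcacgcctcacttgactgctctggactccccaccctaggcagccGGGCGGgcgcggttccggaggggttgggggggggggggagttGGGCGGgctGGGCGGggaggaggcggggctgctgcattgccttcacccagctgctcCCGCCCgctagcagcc
Ntrk2: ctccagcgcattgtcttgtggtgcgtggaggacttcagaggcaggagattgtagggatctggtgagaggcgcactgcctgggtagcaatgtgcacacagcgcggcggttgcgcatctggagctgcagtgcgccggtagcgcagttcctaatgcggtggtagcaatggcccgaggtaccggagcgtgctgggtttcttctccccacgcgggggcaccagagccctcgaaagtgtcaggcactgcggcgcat
The Ngfr window held 4 GC boxes and the Ntrk2 window 0, and 32.7% of all RefSeq windows of this length held at least 1. GC boxes were also in 2 of 2 windows of Ntf3 and in 2 of 7 windows of Bdnf, both genes higher in brain. Neither window held a cyclic AMP response element core. G and C made up 70.4% of the Ngfr window and 62.8% of the Ntrk2 window, against a median of 52.4% over all windows, and CpG pairs numbered 16 and 19, against a median of 6. Windows of Ntf3, Bdnf, Ntrk2 and Ngfr were found, 4 of the 7 genes, and those of Ntf5, Ntrk3 and Sort1 were not used here. A match of letters is a description and not a site of binding.

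Sort1 encodes sortilin, a sorting receptor of the VPS10P family that carries neurotrophin precursors and, with p75, receives them (ENSMUSG00000068747, chromosome 3, 108284082 to 108361511, plus strand). It stood at 83.5, 83.1, 86.3 and 114 CPM in uterus, against 568, 554, 568 and 564 CPM in brain. As for Ngfr, uterus library 4 stood above 3 libraries that were close together. The mean was 91.8 ± 15.0 CPM in uterus and 563 ± 6.79 CPM in brain, a difference of -2.62 ± 0.10 on the log2 scale (adjusted p = 3.24e-09, and 3.44e-08 against a 2-fold change), or 6.14-fold higher in brain. In brain Sort1 was the most even of the 7 genes, with a coefficient of variation of 1.20%. Annotated antisense genes share exon sequence with Sort1 and with Bdnf, and the strand setting of the counting is not given in the sources used here, so reads from them cannot be told apart from these genes.

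**Figure D2:**
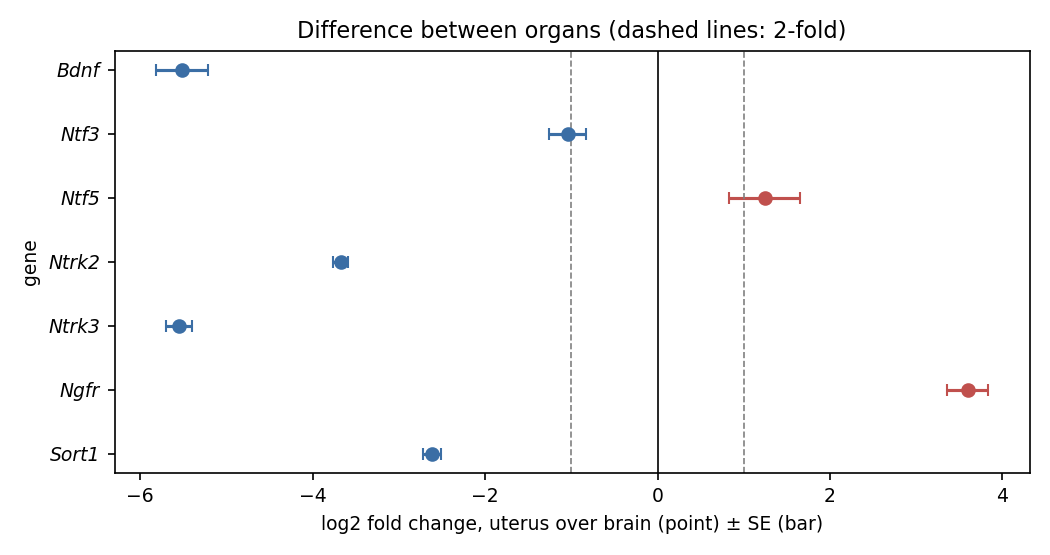
Log2 fold change of uterus over brain for each gene (points) with its SE (bars), and dashed lines at a 2-fold change either way. Ngfr lies at 3.60 and Ntf5 at 1.24 on the uterus side, Ntf3 at -1.04 close to the 2-fold line, and Bdnf at -5.52 and Ntrk3 at -5.55 farthest toward brain.

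Uterus library 4 was read against the marker lists. Of the uteri it held the highest Ngfr, Sort1 and, by little, Ntf3, and the lowest Bdnf, Ntrk3 and Ntf5. The summed level of 4 genes of Schwann cells and peripheral nerve was 7.02 to 7.95 CPM in uterus. In uterus library 4 the sum was 7.58 CPM, inside the range of the other 3 uteri. In brain it was 72.6 to 78.7 CPM, mostly Sox10, at 50.2 CPM, and Cdh19, at 24.7 CPM. The sum does not measure peripheral nerve in whole brain. Prx made up most of that sum in uterus, while the defining marker Sox10 averaged 0.189 CPM and Pmp2 had 0 counts in all 4 uterus libraries. Of these 4 genes 1 reached 1 CPM in all 4 uteri. For sympathetic and sensory neurons the 5 genes summed to 67.1 to 73.4 CPM in brain, mostly Tac1, at 43.1 CPM, and Th, at 17.1 CPM. This likewise does not measure peripheral nerve in brain. In uterus these 5 genes summed to 3.71 to 8.24 CPM, with the lowest sum in library 4. That library also had the highest sum of the uteri for epithelium, at 642 CPM, for neurons, at 10.9 CPM, and for astrocytes, at 18.2 CPM, and the lowest for smooth muscle, at 2696 CPM, and endothelium, at 558 CPM. The part of these in the levels of the 7 genes was not tested. The neuronal sum moved with Bdnf, Ntrk2, Ntrk3 and Sort1 between the organs. So did the astrocyte sum, at 9.44 to 18.2 CPM in uterus and 2844 to 3095 CPM in brain. The oligodendrocyte sum did too, at 14.1 to 16.5 CPM in uterus and 6523 to 7119 CPM in brain. Higher in uterus, as Ngfr was, were the sums of epithelium, stroma, smooth muscle, mural cells, endothelium and leukocytes. Uterine stroma summed to 912 to 1063 CPM in uterus and 61.3 to 66.0 CPM in brain. Mural cells summed to 953 to 1027 CPM in uterus and 183 to 201 CPM in brain. The part of each was not tested. Of the 5 neuronal markers none was at 0 in all 4 uteri, and 1, Stmn2, reached 1 CPM in every uterus.

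Levels of different genes were compared per kilobase of annotated exon sequence. In uterus the order was Ngfr, at 15.8 ± 5.95 CPM per kilobase, Sort1 at 12.1 ± 1.99, Ntrk2 at 3.06 ± 0.351, Ntf3 at 0.674 ± 0.0818, Ntf5 at 0.273 ± 0.128, Ntrk3 at 0.194 ± 0.0463 and Bdnf at 0.108 ± 0.0592 (SD, n = 4). In that order the ranges of the libraries overlapped between Ngfr and Sort1, between Ntf5 and Ntrk3, and between Ntrk3 and Bdnf. Within a library, Ngfr stood above Sort1 in 4 of 4 uteri, Ntrk3 above Bdnf in 4 of 4, and Ntf5 above Ntrk3 in 3 of 4, and these differences were not tested. In brain the order was Sort1, at 74.4 ± 0.897 CPM per kilobase, Ntrk2 at 39.0 ± 0.980, Ntrk3 at 9.06 ± 0.368, Bdnf at 4.93 ± 0.703, Ntf3 at 1.39 ± 0.317, Ngfr at 1.31 ± 0.0861 and Ntf5 at 0.114 ± 0.0445 (SD, n = 4). Ntf3 and Ngfr overlapped there, with Ntf3 the higher in 2 of 4 brains, and the other neighbours did not overlap. With the longest annotated transcript as the length, Ntrk2 at 86.1 ± 2.16 stood above Sort1 at 82.4 ± 0.993 CPM per kilobase in brain. By the longest coding length Ntrk3, at 2.26 ± 0.539 CPM per kilobase, stood above Ntf3, at 1.42 ± 0.173, and Ntf5, at 1.16 ± 0.540, in uterus, and in brain Ntrk2 stood above Sort1 and Ngfr, at 3.52 ± 0.232, above Ntf3, at 2.93 ± 0.668. The annotated exons of Ntrk2 and Ntrk3 add up to 19292 and 30170 nt over many transcripts, against 3446 nt for Ngfr, which has 1, so their levels per exon length are the more uncertain.

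The make-up of the receptors was taken within each library. Ngfr made up 49.7 ± 5.43% of the summed level per kilobase of the 4 receptor genes in uterus and 1.06 ± 0.0756% in brain (SD, n = 4). Sort1 made up 39.4 ± 2.80% in uterus and 60.1 ± 0.567% in brain, Ntrk2 10.2 ± 2.62% in uterus and 31.5 ± 0.403% in brain, and Ntrk3 0.661 ± 0.237% in uterus and 7.31 ± 0.225% in brain. None of these 4 shares overlapped between the organs. For Sort1 the direction depended on the length: by plain counts it made up 43.4 ± 1.44% in uterus and 35.3 ± 0.605% in brain, and by the longest coding length 34.3 ± 1.31% in uterus and 34.6 ± 0.589% in brain. By plain counts Ngfr made up 25.3 ± 5.17% in uterus and 0.283 ± 0.0216% in brain. With the longest transcript as the length, Ngfr made up 42.7 ± 6.04% in uterus and 0.713 ± 0.0528% in brain, and Ntrk2 19.2 ± 4.43% in uterus and 46.9 ± 0.431% in brain. Among the 3 ligand genes, Ntf3 made up 64.4 ± 9.16% in uterus and 21.7 ± 4.68% in brain, and Bdnf 10.5 ± 6.02% in uterus and 76.5 ± 4.79% in brain. Ntf5 made up 25.1 ± 8.22% in uterus and 1.84 ± 0.898% in brain. These ligand shares depended on the length. By plain counts Ntf3 made up 46.4 ± 11.5% in uterus and 7.23 ± 1.80% in brain, and Bdnf 25.9 ± 12.7% in uterus and 91.8 ± 1.94% in brain. By the longest coding length Ntf3 made up 43.6 ± 11.1% in uterus and 7.64 ± 1.89% in brain, and Bdnf 23.0 ± 11.6% in uterus and 91.1 ± 2.09% in brain. By exon length Ntf3 had the largest ligand share in all 4 uteri, at 58.5% or more. By coding length Ntf5 led in uterus library 1, at 48.9% against 39.3% for Ntf3, and by plain counts Ntf3 and Bdnf tied at 38.4% in uterus library 3. Bdnf led in all 4 brains under each of these lengths, at 71.7% or more by exon length.

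**Figure D3:**
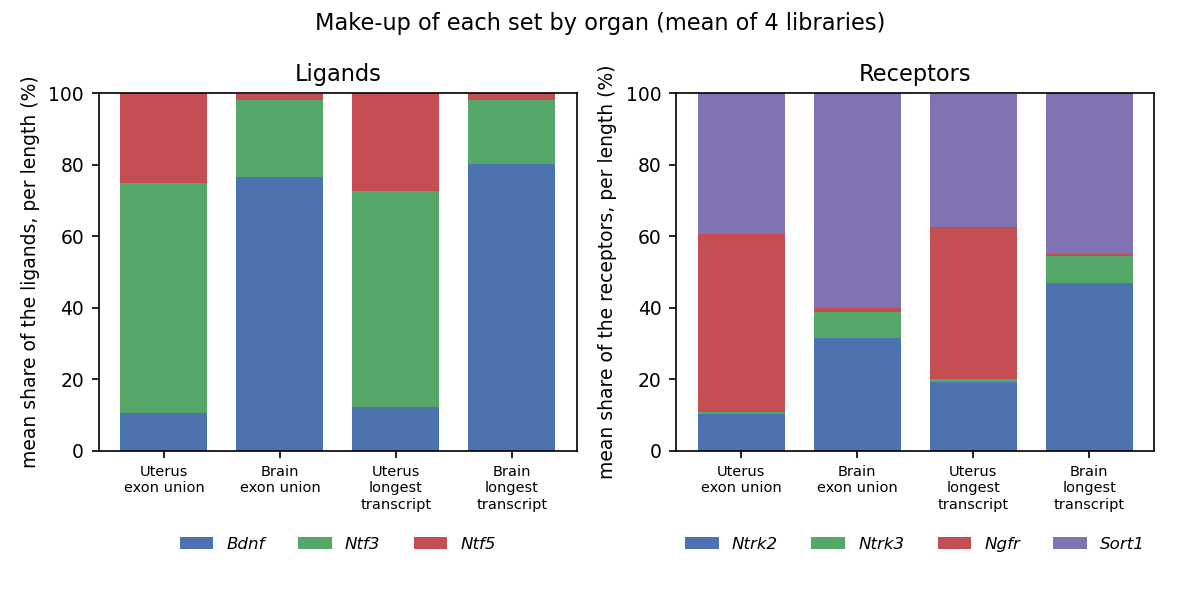
Mean share of each ligand gene (left) and each receptor gene (right) in the summed level per kilobase of its set, in percent, uterus left of brain, with the annotated exon union and the longest transcript as lengths; stacked bars are means of 4 libraries. Ntf3 leads the ligands in uterus (64.4%) and Bdnf in brain (76.5%), and Ngfr takes 49.7% of the receptors in uterus and 1.06% in brain.

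Ratios of counts within a library do not depend on the scaling between libraries. All 10 ratios that were computed differed between the organs by an exact two-sided permutation test (p = 0.0286 for each, the smallest that 4 against 4 libraries allow, and 0.0286 after adjustment over the 10). The ratios share genes with each other and are not independent. Where a gene higher in uterus is set against one higher in brain, the direction follows from the values per gene. No share over other pairs of genes was computed, and the organs did not overlap for 84.1% of the single genes tested. The 2 Trk receptors did not fall in step: Ntrk2 had 11.1, 9.87, 7.89 and 12.8 times the counts of Ntrk3 in uterus, against 2.74, 2.76, 2.83 and 2.70 times in brain, a ratio 3.71-fold higher in uterus. Ngfr had 0.627, 0.833, 0.776 and 1.54 times the counts of Ntrk2 in uterus, against 0.00532, 0.00599, 0.0064 and 0.00629 times in brain, 148-fold higher in uterus. Library 4 was thus the single uterus with more Ngfr than Ntrk2 counts. The ratio of Ngfr to Sort1, the pair that binds precursors, was 0.511, 0.526, 0.542 and 0.746 in uterus and 0.00726, 0.008, 0.0083 and 0.00848 in brain, 71.6-fold higher in uterus.

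Ligands were also set against their receptors. The mean log2 ratio of Bdnf to Ntrk2 counts was -6.59 ± 0.88 in uterus and -4.63 ± 0.24 in brain (SD, n = 4), so that Bdnf stood lower against its receptor in uterus. That of Ntf5 to Ntrk2 was -6.42 ± 0.49 in uterus and -11.31 ± 0.61 in brain, and that of Ntf3 to Ntrk3 was -2.31 ± 0.43 in uterus and -6.87 ± 0.32 in brain, both higher in uterus. In uterus the 2 TrkB ligands were nearer to each other in counts than in brain, with 3.0, 0.703, 0.605 and 1.29 times as many for Ntf5 as for Bdnf, while in brain Ntf5 had 0.00514, 0.00762, 0.011 and 0.0176 times those of Bdnf. Ntf3 had 3.13, 1.14, 1.00 and 3.93 times the counts of Bdnf in uterus, against 0.0797, 0.0893, 0.0496 and 0.0976 times in brain. The ratio of Bdnf to Ngfr was 578-fold lower in uterus and that of Ngfr to Ntrk3 549-fold higher.

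**Figure D4:**
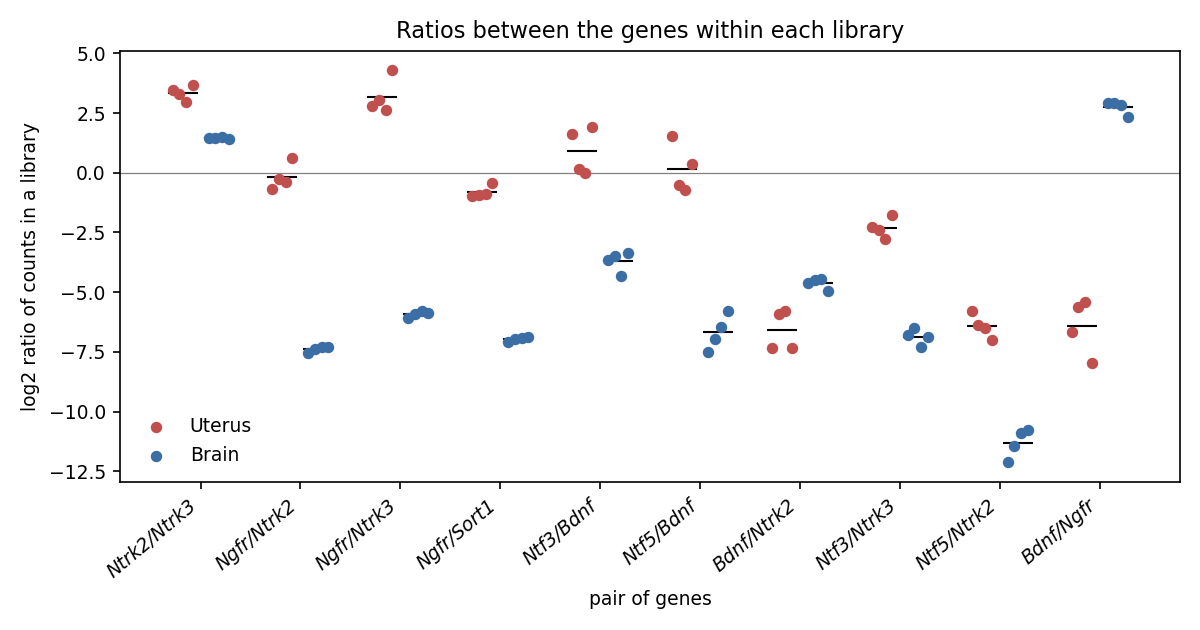
Log2 ratio of the counts of 2 genes within a library, for 10 pairs; points are libraries in order of their number, uterus (red) left of brain (blue), and black lines are means of 4 libraries. The organs do not overlap for any pair, and the means of Ngfr over Ntrk2 lie at -0.17 in uterus and -7.38 in brain.

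Over all genes tested, the median SD between animals on the log2 scale was 0.14 in uterus and 0.10 in brain. In uterus the 7 genes lay above that median, Ntf3 and Ntrk2 only slightly. The median was not matched for level, and counting error adds to the SD of Bdnf and Ntf5, which had few counts. The SD in uterus was 0.78 for Bdnf, 0.59 for Ntf5, 0.47 for Ngfr, 0.34 for Ntrk3, 0.22 for Sort1, 0.17 for Ntf3 and 0.16 for Ntrk2. In brain it was 0.52 for Ntf5, 0.34 for Ntf3, 0.22 for Bdnf, 0.10 for Ngfr, 0.059 for Ntrk3, 0.036 for Ntrk2 and 0.017 for Sort1. The receptors were thus steady between brains, while Ngfr and Ntrk3 were not between uteri. For Ngfr this rested mainly on uterus library 4, at 85.2 CPM against 42.6 to 46.7 CPM in the others.

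Of 11 proteases listed for the cutting of neurotrophin precursors, directly or through plasminogen, 9 were tested. Of these, 5 were higher in uterus and 3 in brain, beside 43.5% and 43.6% of all genes tested. For Mmp9, at 2.52 CPM in uterus and 1.92 CPM in brain, no call was made. Past a 2-fold change 2 were higher in uterus and 2 in brain, beside 23.5% and 25.8% of all genes tested. The median log2 fold change of the 9 proteases was 0.40, beside 0.012 over all genes tested, and it is the same with Mmp3 at its bound. Pcsk2, a proprotein convertase of neuroendocrine granules, was 0.164 ± 0.203 CPM in uterus and 322 ± 9.88 CPM in brain (-10.89 ± 0.37, adjusted p = 1.06e-09). Mmp3, a matrix metalloproteinase, was 15.7 ± 8.06 CPM in uterus and had 0 counts in brain, at least 870-fold higher against 3 counts over the 4 brain libraries. Furin, Pcsk5, Pcsk7 and Plat were the other genes higher in uterus, and Pcsk1 and Pcsk6 the others higher in brain. Plat encodes tissue plasminogen activator, which acts on plasminogen, the product of Plg. Plg, with 0 counts in uterus and 20 in brain, and Mmp7, with 78 in uterus and 0 in brain, were the genes not tested.

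Of the 4 other VPS10P receptors, 3 were higher in brain and 1 in uterus, beside 43.6% and 43.5% of all genes tested. Their median was -4.52. The 3 higher in brain passed a 2-fold change, beside 25.8% of all genes tested. Sorcs1 was 0.0771 ± 0.0640 CPM in uterus and 55.9 ± 1.40 CPM in brain (-9.47 ± 0.23, adjusted p = 8.18e-11), and Sorcs3 was 0.288 ± 0.137 CPM in uterus and 55.6 ± 3.18 CPM in brain (-7.58 ± 0.17, adjusted p = 6.23e-11). Sorcs2, known as a partner of p75 for precursor ligands, was 87.0 ± 7.5 CPM in uterus and 70.9 ± 6.59 CPM in brain (0.29 ± 0.08, adjusted p = 0.00638). Its libraries overlapped, at 78.1 to 96.4 CPM in uterus and 63.2 to 78.4 CPM in brain, and it did not pass a 2-fold change.

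Of 14 adaptors and effectors of Trk receptors, 3 were higher in uterus, 9 in brain, and Frs2 and Sh2b2 did not pass, with a median of -0.25. Past a 2-fold change 1 was higher in uterus and 4 in brain. Over all genes tested the shares were 43.5% and 43.6%, and 23.5% and 25.8% past 2-fold. The SHC adaptors were split: Shc1 was 149 ± 8.54 CPM in uterus and 17.7 ± 0.386 CPM in brain (3.08 ± 0.06, adjusted p = 1.46e-11), and Shc3, a neuronal member, was 0.750 ± 0.145 CPM in uterus and 19.1 ± 2.28 CPM in brain (-4.67 ± 0.16, adjusted p = 1.25e-09). Shc2 lay between them, at 42.9 ± 1.24 CPM in uterus and 60.3 ± 1.62 CPM in brain (-0.49 ± 0.05), and did not pass a 2-fold change. Of the 10 tested partners and effectors of p75, 4 were higher in uterus, 5 in brain, and for Prdm4, at 39.7 CPM in uterus and 37.7 CPM in brain, no call was made. Their median was -0.15. Past a 2-fold change 1 was higher in uterus and 2 in brain, beside the same shares of all genes tested. Nradd, which encodes a membrane protein related to p75, was 29.0 ± 2.68 CPM in uterus and 2.33 ± 0.381 CPM in brain (3.64 ± 0.13, adjusted p = 1.64e-09). The signalling partners of p75 in the Nogo receptor complex were lower in uterus: Lingo1 was 4.12 ± 0.782 CPM in uterus and 224 ± 24.0 CPM in brain (-5.77 ± 0.14, adjusted p = 1.04e-10), and Rtn4r was 1.68 ± 0.480 CPM in uterus and 44.9 ± 2.60 CPM in brain (-4.75 ± 0.17, adjusted p = 1.24e-09). Upper-quartile and library-size scaling, under which the median of all genes was 0.27, against 0.012 with TMM, turned the medians of the adaptors and of the p75 partners to just above 0, at 0.0027 and 0.10 with upper-quartile scaling. They also gave 4 adaptors higher in uterus and 6 in brain. The shares over all genes depended on the scaling too. Of 16074 genes tested, upper-quartile scaling gave 8182 higher in uterus and 5966 in brain. Library-size scaling gave 8179 and 5949, and TMM 6988 and 7001.

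**Figure D5:**
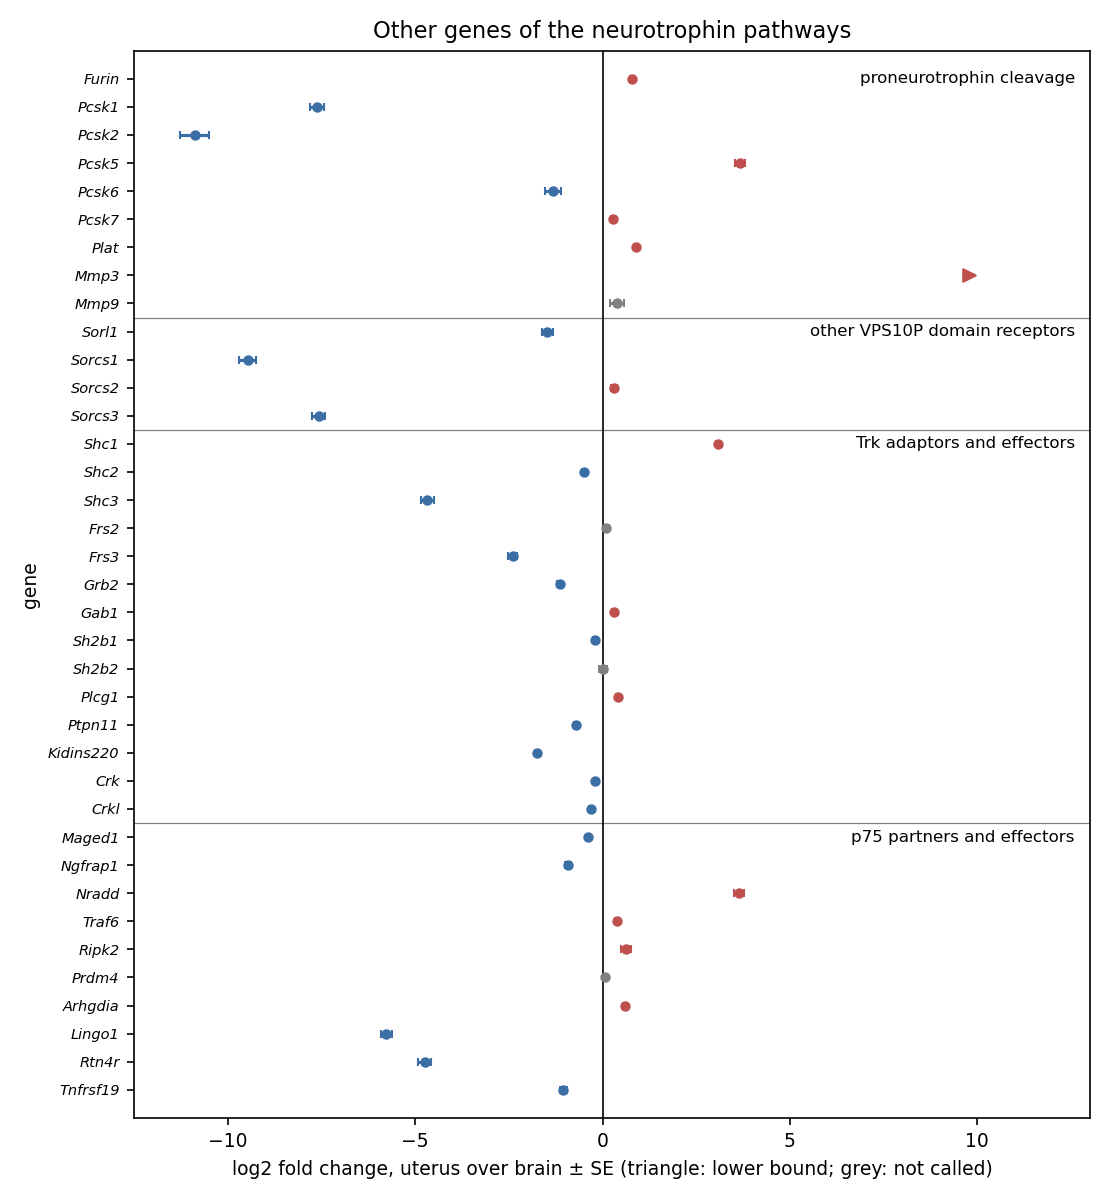
Log2 fold change of uterus over brain ± SE for the tested genes of the 4 lists of pathway genes, red where called higher in uterus, blue where called higher in brain and grey where not called; the triangle is the lower bound of Mmp3. Pcsk2 and Sorcs1 lie farthest toward brain, at -10.89 and -9.47, and Shc1, Pcsk5 and Nradd are at 3 or more toward uterus.

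The genes with the pattern most like each member were found by the root mean square difference of log2 CPM over the 8 libraries, each gene centred on its own mean, among 15322 named protein-coding genes. For Ngfr these were Pla2g4a, Ammecr1 and Creb3l4, at 0.162, 0.187 and 0.197. For Bdnf they were Kcnf1, Vwc2 and Rasgrf2, at 0.205, 0.267 and 0.281, and for Ntrk3 Kcnk2, Gpr62 and Camk2n1, at 0.110, 0.122 and 0.137. For Ntrk2 they were Slc2a13, Tspyl5 and AI464131, at 0.0686, 0.0786 and 0.0956, and for Sort1 Arhgap32, Atp6v1c1 and Map7, at 0.0701, 0.0747 and 0.0849. For Ntf3 they were Eomes, Mfsd2b and Adamts17, at 0.0922, 0.168 and 0.172, and for Ntf5 Zfp993, Ly6g5b and Arg1, at 0.199, 0.203 and 0.325. Pla2g4a, the nearest to Ngfr, was 70.1 ± 23.1 CPM in uterus and 6.57 ± 0.535 CPM in brain, and Kcnf1, the nearest to Bdnf, was 3.54 ± 2.02 CPM in uterus and 141 ± 15.6 CPM in brain.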

How the data were processed

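Per the labels, total RNA was extracted with an RNeasy kit and made into stranded libraries without ribosomal RNA, 1 per animal and organ. The authors' deposited table holds raw counts per Ensembl gene, with no normalization. The submitters' processing notes name FastQC, HISAT2 2.0.3, featureCounts, edgeR and GRCm38.p5. Which annotation release was used, how strand was set and what was done with multi-mapped reads is not given in the sources used here. GENCODE M21 on GRCm38 held 19774 of the 19884 gene identifiers and gave coordinates and lengths; starts and windows before them came from RefSeq on GRCm38.p6.

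From these counts, edgeR 4.0.16, DESeq2 1.42.0 and limma 3.58.1 in R 4.3.3, and Python 3.11.15 with scipy 1.17.1 and matplotlib 3.10.9, were used. All 8 libraries entered a single fit of organ, with TMM scaling and filterByExpr, which left 16074 genes. The quasi-likelihood test was two-sided, adjusted by Benjamini-Hochberg over those genes at 0.05, with glmTreat for a 2-fold change. SE is the unshrunken log2 fold change over the square root of F. Ratios used counts plus 0.5. A count of 0 was bounded at 3 counts. Log2 CPM used a prior count of 2.

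The 7 genes and the lists were chosen with earlier results of these data known. From each list the 2 tested genes with the largest change and at least 1 CPM in the organ where they are higher are named with values, and the called gene of largest change against the list's median; other list, marker and neighbour genes named were chosen after their values were seen, except the 3 nearest genes of each member. Alternatives were other scalings, filters, DESeq2, limma-voom, a block for replicate number, a threshold of 0.01, other lengths and added counts, and leaving libraries out; the coding length was chosen after seeing the data. No pair of libraries of 1 organ agreed within sampling noise. The fit was tested on simulated data. These drew both organs from the brain means and changed few genes, so they do not test the scaling between the organs. Some list and marker genes are not reported here.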

Additional observations from a re-analysis of the deposited data

Results flagged for a closer look

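In 4 of 54 groups of 4 libraries checked, 1 library stood apart from the other 3 by Dixon's ratio (0.833 to 0.904), past its 95% critical value; chance gives this in about 1 of 20 groups. Ngfr was 85.2 CPM in uterus library 4, against 42.6 to 46.7 CPM in the other 3 uteri. Sort1 was 114 CPM in the same library, against 83.1 to 86.3 CPM in the others. The log2 ratio of Ngfr to Sort1 counts was -0.42 there, against -0.97 to -0.88 in the others. In brain, the log2 ratio of Bdnf to Ngfr counts was 2.34 in library 4, against 2.83 to 2.93 in the other 3 brains. No cause was tested.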

How the results depend on the processing

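Bdnf, Ntf3, Ntrk2, Ntrk3, Ngfr and Sort1 kept their direction and their call under all alternatives run, which gave log2 fold changes of -5.84 to -5.25 for Bdnf, -1.17 to -0.79 for Ntf3, -3.73 to -3.42 for Ntrk2, -5.70 to -5.27 for Ntrk3, 3.29 to 3.85 for Ngfr and -2.72 to -2.36 for Sort1. Ntf5 kept its direction at 0.90 to 1.5, with adjusted p of 0.00599 to 0.0596, but its call ended with a block for replicate number (1.19, adjusted p = 0.0596), at a threshold of 0.01 (1.24, adjusted p = 0.0165) and among the fits that left out 1 library, which gave 0.90 to 1.45. It was removed by the filter of 1 CPM in 4 libraries. The number of the 7 genes called higher in uterus was thus 1 under that filter, the block and the threshold of 0.01, and 1 to 2 without 1 library. Same-numbered libraries of the organs did not deviate together (correlations of -0.048 to 0.083 across genes, which are not independent replicates), so the numbers were not used to pair libraries, although the labels do not tell whether a number marks a mouse; with the block uterus was the higher organ for 6898 genes and brain for 6948, against 6988 and 7001 without it. All 10 ratios between genes kept their direction when 1 library was left out, which is fixed in advance where the organs do not overlap. In those comparisons the two-sided exact p, taken as the smaller tail times 2, cannot fall below 0.05. Of the shares, 31 moved by more than 1 SD with another length and 11 did not. The low counts of Ntf5 and of Bdnf in uterus limit what can be said of their levels.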
